A study of Mus musculus with 96 samples.

Results

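The nuclear genes of the mitochondrial respiratory chain and ATP synthase were followed in mouse liver with and without Rbbp5 in hepatocytes. They were taken from the gene table as the symbols that begin with Nduf, Uqcr, Cox4 to Cox8 or Atp5 and that had a mean of at least 1 FPKM (fragments scaled to transcript length and to the size of the library) over the 96 libraries. Of 13094 rows 85 had such a symbol and 82 reached the mean. By their known roles, 36 encode complex I subunits, 6 complex I assembly factors, 8 complex III subunits, 15 complex IV subunits and isoforms, 15 complex V subunits, and 2, Atp5s and Atp5sl, proteins that are no constitutive subunits of complex V. Ndufa4 and Ndufa4l2 were placed in complex IV, where the Ndufa4 protein is now known to reside. Just below the limit were Cox8b at 0.868, Ndufaf5 at 0.636 and Cox6a2 at 0.606 FPKM, and just above it Cox7a1 at 1.67, Ndufa4l2 at 2.05 and Atp5s at 2.44 FPKM. The subunits encoded in mitochondrial DNA were not analysed here.

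RNA came from whole liver of 96 male C57BL/6J mice, 3 to 4 months old. The control group (Flox, n = 48) was Rbbp5 (flox/flox); Alb-CRE(-/-), and the knockout group (LKO, n = 48) consisted of Rbbp5 (flox/flox); Alb-CRE(+/-) littermates, so that the floxed alleles were shared and Cre under the albumin promoter acts in hepatocytes, while the other cells of the liver keep Rbbp5. After 2 weeks of 12 h light and 12 h darkness and 24 h of constant darkness, with food always present, livers were collected at 2 h steps of circadian time (CT), between CT0 and CT46, which gave 2 libraries for each genotype at each of 24 times. RBBP5 is a shared subunit of the enzymes that methylate lysine 4 of histone H3, and the series asks what its loss does to gene expression and to rhythms of about 12 h. Libraries carry a time and a letter (A, B or C), whose meaning the labels do not give.

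Oxidative phosphorylation passes electrons from NADH through complex I, ubiquinone, complex III and cytochrome c to oxygen at complex IV, and the proton gradient that complexes I, III and IV build drives ATP synthesis by complex V. Most subunits are encoded in the nucleus, many of them by short and abundant transcripts. Hepatocytes depend on this pathway to pay for glucose and urea synthesis, and the liver uses common isoforms of the complex IV subunits where heart and skeletal muscle use their own.

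Of the 82 genes, 70 had a promoter window in RefSeq (GRCm38.p6), from 250 bases before to 50 bases after the annotated start. The 100 bases before the start are shown for 9 genes whose genotype differences are described next; they were chosen by hand with their values known, so how many of the 9 hold a motif says nothing about the set. Capitals mark the letters CCGGAAG or, read from the other strand, CTTCCGG, the core bound by ETS factors such as GABPA, and in Atp5g3 the letters AAGGTCA in reverse, bound by estrogen-related receptors. Where the RefSeq start lies inside a GENCODE gene model, the window reaches into that model. The 4 genes that were higher in LKO are given first, on chr8:83566658-83566757 (plus strand), chr7:30626115-30626214 (minus), chr11:115419920-115420019 (minus) and chr10:80406822-80406921 (minus), and each is written 5′ to 3′ along its gene.
Ndufb7: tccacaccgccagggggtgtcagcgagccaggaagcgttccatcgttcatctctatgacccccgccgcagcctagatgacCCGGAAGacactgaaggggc
Cox6b1: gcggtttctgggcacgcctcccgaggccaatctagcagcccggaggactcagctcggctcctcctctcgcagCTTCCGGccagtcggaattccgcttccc
Atp5h: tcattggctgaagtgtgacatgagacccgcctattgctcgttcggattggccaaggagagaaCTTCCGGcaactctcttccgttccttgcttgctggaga
Uqcr11: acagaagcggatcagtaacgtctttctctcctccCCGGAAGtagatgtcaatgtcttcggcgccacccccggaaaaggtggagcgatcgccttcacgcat

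Then follow 4 genes that were lower in LKO, on chr19:4012756-4012855 (minus), chr9:57521132-57521231 (plus), chr10:128083207-128083306 (plus) and chr2:73911327-73911426 (minus), and last Cox6b2 on chr7:4753095-4753194 (minus), which had the largest rise of all.
Ndufv1: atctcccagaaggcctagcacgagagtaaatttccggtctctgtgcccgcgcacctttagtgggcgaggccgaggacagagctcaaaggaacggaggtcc
Cox5a: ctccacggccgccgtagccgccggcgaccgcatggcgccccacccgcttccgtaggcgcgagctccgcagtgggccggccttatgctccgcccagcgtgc
Atp5b: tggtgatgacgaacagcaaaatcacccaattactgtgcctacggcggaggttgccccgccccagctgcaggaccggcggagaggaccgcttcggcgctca
Atp5g3: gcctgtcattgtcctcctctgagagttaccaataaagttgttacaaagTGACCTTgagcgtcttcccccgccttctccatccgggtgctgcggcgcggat
Cox6b2: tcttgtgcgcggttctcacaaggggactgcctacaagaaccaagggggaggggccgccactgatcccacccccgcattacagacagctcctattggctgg

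Over the whole windows of 300 bases, both strands, the ETS core stood in 15 of the 70 genes (21.4%), the same share as in the 7557 tested genes with a window (21.4%). The letters GCATGCGC, a core of the NRF1 site that overlaps its own reverse complement, stood in 10 genes (14.3%, against 6.26%), AAGATGGCG, bound by YY1, in 8 (11.4%, against 4.00%) and AAGGTCA in 7 (10%, against 4.39%). Of the 43 genes with a window that were higher in LKO at CT0-22, 12 held the ETS core, 7 the NRF1 letters and 7 the YY1 letters, while of the 11 that were lower, 1, 1 and 0 did. The letters TGACGTGG, bound by XBP1, stood in 1 gene (1.43%, against 0.966%). These are matches of letters and were not tested as binding sites.

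In FPKM, a scale per transcript length, complex III and complex IV genes were the most abundant. Over the mean levels of its genes in the 96 libraries, the median was 78.0 FPKM for complex I, 249.8 for III, 266 for IV and 176 for V. Uqcrq, an accessory subunit of complex III, had the highest mean at 710 FPKM, and Uqcrc2, a core protein of the same complex, the lowest of its complex at 40.7. In complex IV the range ran from Cox6a1 at 575 FPKM to Cox7a1 at 1.67, in complex I from Ndufb7 at 183 to Ndufa11 at 11.6, and in complex V from Atp5g3 at 337 to Atp5f1 at 95.6. The assembly factors were far lower, from Ndufaf1 at 13.6 FPKM to Ndufaf7 at 2.90, and Atp5sl measured 15.8 FPKM.

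The isoform pairs had the order known for liver. Cox6b1 measured 351 FPKM and its testis paralog Cox6b2 2.98, Ndufa4 measured 325 and its hypoxia-inducible paralog Ndufa4l2 2.05, and Cox7a2 measured 105, the supercomplex factor Cox7a2l 63.5 and the heart and muscle isoform Cox7a1 1.67. The common isoforms Cox4i1, Cox7b and Cox8a measured 327, 86.4 and 442 FPKM. The ring of subunit c has 3 genes for the same mature protein, and all were abundant, with Atp5g3 at 337, Atp5g1 at 176 and Atp5g2 at 155 FPKM. The muscle isoforms Cox6a2 and Cox8b reached 44.2 and 54.6 FPKM in 1 library, LKO CT4 with letter A, where 6 striated muscle markers summed to 1489 FPKM. The next library by muscle markers was Flox CT12 with letter B (105.6 FPKM summed, Cox6a2 4.60, Cox8b 6.47), and in the other 94 libraries neither gene passed 1.23 FPKM. Cox7a1 was highest in the same LKO library (14.4 FPKM) and reached at most 6.41 FPKM elsewhere.

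As a check of the labels, the Flox mean of Rbbp5 was 3.27 ± 0.586 FPKM (SD, n = 48) and the LKO mean 2.46 ± 0.774, where hepatocytes are the deleted cells and the whole gene is counted. At CT42-46 it was not lower in LKO (3.79 ± 0.399 FPKM, n = 6, against 2.71 ± 0.718). The 6 LKO libraries of those times stand apart: the summed FPKM of alveolar macrophage markers was 5249 to 10634 there and at most 126 in every other library, all 9 tested markers of that list were higher in LKO, and hepatocyte markers summed to 18646 to 29807 FPKM against 24377 to 42470 in Flox at the same times. Cholangiocyte markers summed there to 428 ± 255 FPKM in LKO and 26.4 ± 5.35 in Flox, and neutrophil markers to 85.0 ± 23.0 and 8.87 ± 4.18, and the part of these cells in the calls of those times was not tested. Results are therefore given by window, CT0 to 22 (CT0-22, 24 libraries for each genotype), CT24 to 40 (CT24-40, 18) and CT42 to 46 (CT42-46, 6). In whole tissue, fewer cells of a type and less RNA per cell cannot be told apart. Hepatocyte markers summed to 33610 ± 4385 FPKM in Flox and 32440 ± 5158 in LKO at CT0-22, and cholangiocyte markers to 22.6 ± 9.14 and 96.5 ± 94.4. A sum follows its most abundant genes. Taken singly, 5 of the 8 tested hepatocyte markers were lower in LKO over all times and 0 higher (19.1% and 39.4% of all rows). Their median log2 difference at CT0-22 was -0.39, and that of all rows -0.09. Relative depth ran from 0.730 to 1.65 with a mean of 0.955 in Flox and 1.07 in LKO, and absolute depth is unknown.

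Over all times, 35 of the 82 genes were higher in LKO and 14 lower at an adjusted p under 0.05, where 39.4% of the 9901 tested rows were higher and 19.1% lower. The share of higher genes, 35 of 82, was thus near that of all rows. The median log2 difference was 0.11 for the genes and 0.07 for all rows. The split depended on scaling: with median-ratio scaling 18 were higher and 18 lower. The shares of all rows under that scaling are not given here. By complex, 17 of 36 complex I genes were higher and 4 lower (median 0.11), 2 and 2 of 8 in complex III (0.04), 9 and 1 of 15 in complex IV (0.21), and 5 and 6 of 15 in complex V (0.10). The other 33 genes did not pass.

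The balance changed with time. At CT0-22, 49 genes were higher in LKO and 16 lower, with a median of 0.23, whereas 25.1% of all rows were higher and 43.8% lower, with a median of -0.09. At CT24-40, 7 were higher and 2 lower (29.9% and 5.21% of all rows), and the medians were 0.07 and 0.11. At CT42-46, 4 were higher and 19 lower (58.4% and 10.6% of all rows), and the medians were -0.23 and 0.49. The difference between the days itself, CT24-46 minus CT0-22, passed in 58 genes, higher on the second day in 16 and lower in 42, where 59.5% of all rows were higher and 9.65% lower.

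**Figure D1:**
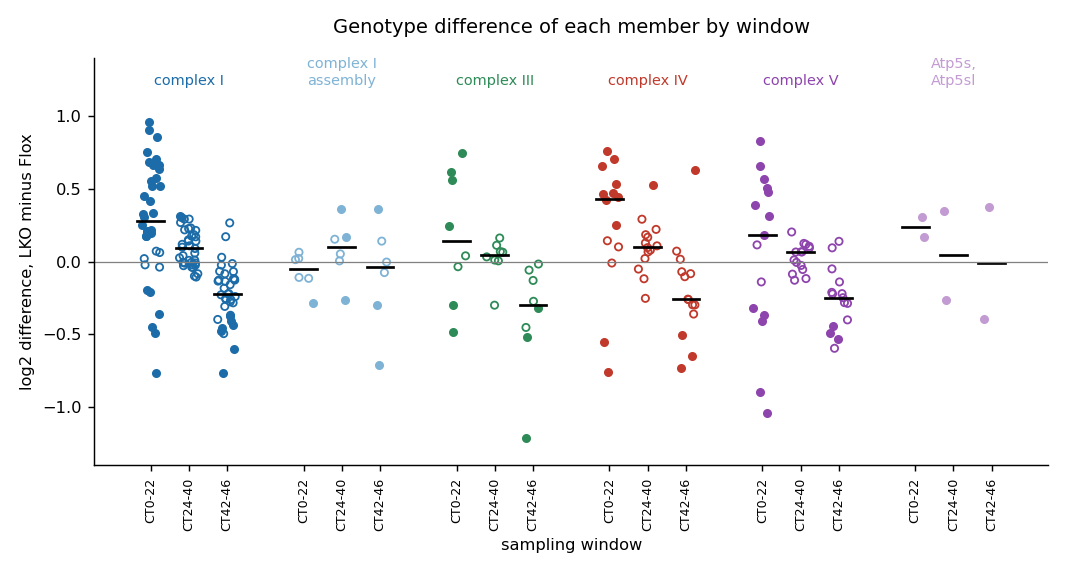
Log2 difference between LKO and Flox (vertical axis) of each gene in the 3 sampling windows, by complex; filled points passed an adjusted p of 0.05, open points did not, and bars are medians. Cox6b2 lies outside the axis and is left out. In complexes I, III, IV and V the medians lie above 0 at CT0-22 and below 0 at CT42-46.

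The medians of all 4 complexes followed this course. At CT0-22 the higher and lower genes were 25 and 6 in complex I (median 0.28), 4 and 2 in complex III (0.14), 10 and 2 in complex IV (0.44) and 8 and 5 in complex V (0.18). At CT42-46 the medians were -0.23, -0.30, -0.26 and -0.25, with 0, 0, 2 and 0 genes higher and 7, 3, 3 and 3 lower. The summed FPKM of complex I in Flox went from 2371 ± 470 at CT0-22 to 2803 at CT24-40 and 3411 at CT42-46. In LKO it went from 3099 ± 689 to 2992 and 2797. The mean log2 level of complex I, from the mean of all libraries, went from -0.21 to -0.0001 and 0.25 in Flox. In LKO that level stayed at 0.07, 0.10 and 0.02. The mean level of all tested rows moved too, from 0.006 to -0.05 and -0.19 in Flox and from -0.08 to 0.08 and 0.41 in LKO. The level of complex I alone thus does not place the course in 1 genotype. Complex III summed to 1812, 2212 and 2930 FPKM in Flox and to 2548, 2150 and 1915 in LKO, complex IV to 2727, 3251 and 4086 and to 3508, 3532 and 3440, and complex V to 2655, 2956 and 3560 and to 2921, 2988 and 2860. The sums in Flox rose from window to window in each complex, while in LKO those of complexes I and III fell and those of IV and V moved little. The 82 genes together made up 2.68 ± 0.398% of all FPKM in Flox and 3.04 ± 0.472% in LKO. By window this share was 2.54, 2.68 and 3.28% in Flox and 3.05, 3.04 and 2.98% in LKO.

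The mean log2 level of complex IV counts Cox6b2, which is in the set only through LKO and differed by 3.13 at CT42-46. With that gene counted, the level at CT42-46 was 0.27 in Flox and 0.28 in LKO, from the mean of all libraries. At CT24-40 it was -0.07 and 0.21, and the LKO mean was higher at 2 of 3 and 8 of 9 times. A level without Cox6b2 was not computed, so these values do not set complex IV apart. Of its 15 genes 4 had a difference above 0 at CT42-46 (median -0.26). The 2 libraries of a time often lay far apart. For complex I at CT0-22, both LKO libraries lay above both Flox libraries at 8 of 12 times and below them at 1, and for complexes III, IV and V above at 7, 7 and 3 times and below at 1, 0 and 2. The gap between the libraries of a time in the mean log2 level of complex I had a median of 0.13 in Flox and 0.27 in LKO on that day, and reached 0.95 in LKO at CT6. At CT6 1 LKO library lay 0.41 above the mean of all libraries and the other 0.54 below it (level -0.54), the latter below both Flox libraries.

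**Figure D2:**
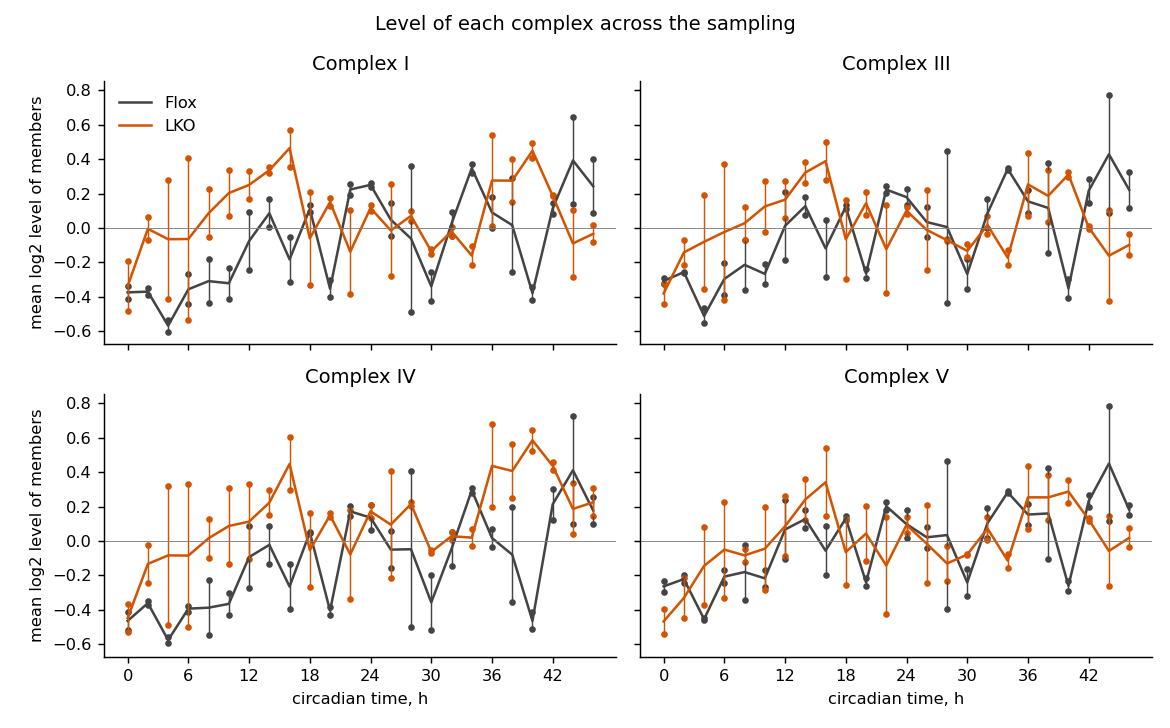
Mean log2 level of the genes of each complex (vertical axis, from the mean of all libraries) against circadian time in h; points are single libraries, vertical lines join the 2 libraries of a time and long lines follow their means, Flox in grey and LKO in orange. LKO means lie above Flox at 10, 9, 10 and 8 of the 12 times from CT0-22 in complexes I, III, IV and V. The level of complex IV counts Cox6b2, which is in the set only through LKO.

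In complex I the 3 largest rises were in accessory subunits, while core subunits of the electron path passed in both directions. Ndufs8 (0.32) and Ndufv2 (0.18), iron-sulfur subunits of that path named after their values were seen, were higher, and Ndufs3 and Ndufs7 did not pass (0.02 and 0.12). Ndufa5, an accessory subunit of the ubiquinone-reducing module, ranged in Flox from 35.3 to 146 FPKM with a median of 54.9, and in LKO from 38.6 to 175 with a median of 90.7. The ranges overlapped widely, but the LKO mean was higher at 19 of 24 times. The log2 difference was 0.58 (SE 0.110, adjusted p = 7.66e-06), and by window 0.96, 0.29 and -0.12. Ndufa3, a small membrane-arm subunit, had a Flox mean of 110 ± 39.9 FPKM and an LKO mean of 156 ± 52.3 (SD, n = 48; 0.51). Ndufb7, also of the membrane arm, went from 158 ± 56.0 to 209 ± 59.7 (0.42).

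Ndufv1, which holds the site where NADH gives up its electrons, ran the other way, from a Flox median of 56.9 FPKM (29.6 to 80.1) to an LKO median of 45.8 (16.8 to 84.0). It was lower at 19 of 24 times, by 0.44 (log2 difference -0.44, SE 0.083, adjusted p = 8.78e-06). That difference was concentrated in CT0-22, with -0.76 there and -0.08 and -0.18 later. Ndufb9, a LYR-motif subunit of the membrane arm, had a mean of 186 FPKM in Flox and 157 in LKO (-0.24). Ndufs1, the large iron-sulfur subunit of the NADH-oxidising module, was also lower (-0.20) and is named here after its value was seen. By module, 5 of 10 genes of the NADH-oxidising module were higher and 2 lower, 3 and 1 of 6 of the ubiquinone module, and 9 and 1 of 19 of the membrane arm.

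Of the 6 complex I assembly factors 1 was higher and 1 lower. Ndufaf7, a methyltransferase needed for assembly, measured 2.70 ± 0.358 FPKM in Flox and 3.11 ± 0.928 in LKO (0.12, adjusted p = 0.0249). Its difference was -0.11 at CT0-22 and 0.36 in both later windows, the opposite order of most subunits. Ndufaf6 went from 4.15 to 3.34 FPKM (-0.24), and by window -0.11, -0.26 and -0.71.

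In complex III 2 genes were higher and 2 lower. The small accessory subunits Uqcr11 (420 FPKM in Flox, 512 in LKO, log2 difference 0.31) and Uqcrb (243 and 302, 0.31) were higher, but with the length trend described below removed both lost the call and turned sign (-0.042 and -0.0051). The other accessory genes, Uqcr10 (0.08), Uqcrh (-0.00) and Uqcrq (0.11), did not pass. Both core proteins, Uqcrc1 (75.1 and 66.0, -0.22) and Uqcrc2 (42.7 and 38.6, -0.16), were lower. Uqcrfs1, the Rieske iron-sulfur protein of the catalytic centre, did not pass (-0.05, adjusted p = 0.304). The difference of Uqcrq changed sign between the days. Its mean at CT0-22 was 543 ± 146 FPKM in Flox and 946 ± 300 in LKO, and at CT42-46 1022.5 ± 277 and 444 ± 152. The difference between days was -1.28 (SE 0.193, adjusted p = 1.28e-07).

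In complex IV 9 of 15 genes passed upward in the deposited values. With the length trend described below removed, 2 were higher, Cox6b1 and Cox6b2, and 6 lower. Of the 9837 rows with a length, 3415 were then higher and 3092 lower. Cox6b1, the common isoform of subunit 6B, had a Flox median of 287 FPKM (172 to 601) and an LKO median of 413 (189 to 672), with overlapping ranges and a higher LKO mean at 17 of 24 times (0.44, SE 0.090, adjusted p = 2.67e-05). Cox7a1 went from 1.19 to 2.15 FPKM (0.44, adjusted p = 0.000913). The difference of Cox7a1 was 0.38 without the LKO library that held muscle transcripts, and still passed, but 0.06 with the length trend removed (adjusted p = 0.558) and then did not. Cox5a, a matrix-side subunit, was the only complex IV gene to pass in the lower direction, from 143 ± 33.4 to 113 ± 40.8 FPKM (-0.43, adjusted p = 0.000129), and at CT0-22 from 137 ± 22.2 to 89.6 ± 40.01. Cox7b, a membrane subunit, was higher in LKO on the first day (71.9 ± 16.2 and 108 ± 31.8 FPKM) and lower at CT42-46 (115 ± 17.99 and 69.7 ± 18.5), and the change between days was -0.91 (SE 0.150, adjusted p = 6.91e-07).

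Cox6b2, the isoform of subunit 6B known from testis, rose far more than any other gene of the set. Its Flox values ran from 0 to 1.52 FPKM with a median of 0.236, and its LKO values from 0 to 27.1 with a median of 2.01. Cox6b2 reached the mean of 1 FPKM only through LKO, so that a difference was built into its presence in the set. Over all times the log2 difference was 1.61 (SE 0.175, adjusted p = 6.74e-12), and the LKO mean was higher at 23 of 24 times. By window the Flox means were 0.201 ± 0.207, 0.356 ± 0.292 and 0.668 ± 0.484 FPKM, and the LKO means 0.720 ± 0.750, 9.27 ± 5.12 and 14.5 ± 7.46. In LKO no library before CT18 exceeded 0.890 FPKM, both libraries of CT24 had at least 3.35, and at CT42-46 all 6 lay between 7.42 and 27.1, above all 6 Flox libraries (0.112 to 1.52).

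At CT24-40 the difference of Cox6b2 was 2.67 (SE 0.182), and alveolar macrophage markers summed to 37.97 to 108 FPKM in LKO; their part in its values at CT42-46 was not tested. Across CT24-40 the values differed strongly between libraries of 1 time, with 8.27 and 0.487 FPKM at CT32 and 9.42 and 1.69 at CT30. The difference at CT0-22, 0.44, was -0.01 once the length trend described below was removed, whereas that at CT24-40 was 2.49. Cox6b1 did not share the course: its differences in the 3 windows were 0.66, 0.29 and 0.02. The gene lies on chromosome 7 from 4751792 to 4753094 (mm10, minus strand, ENSMUSG00000051811.14), with no overlapping gene model.

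**Figure D3:**
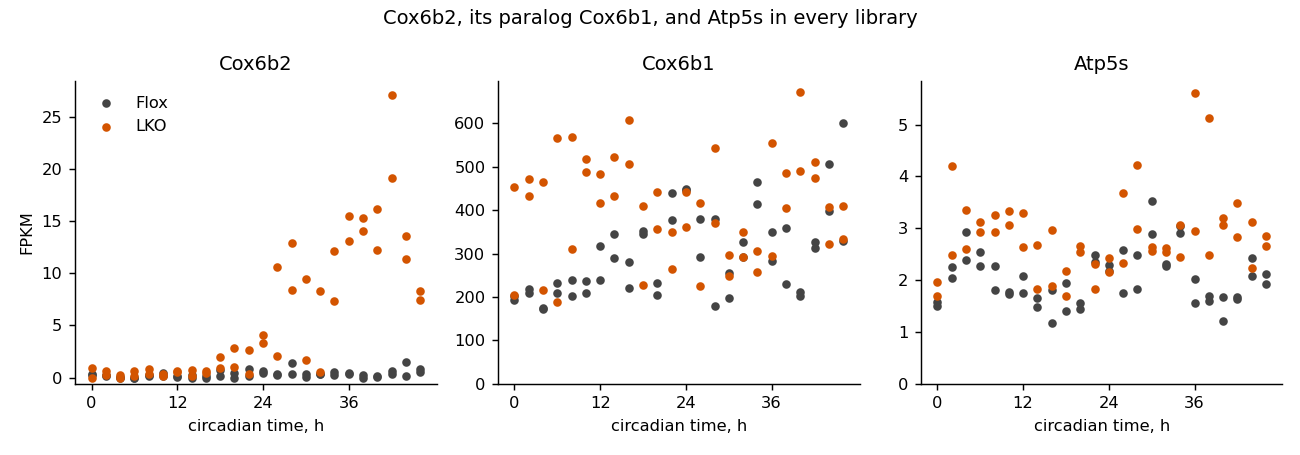
FPKM (vertical axis) of Cox6b2, its paralog Cox6b1 and Atp5s in every library against circadian time in h, Flox in grey and LKO in orange. Cox6b2 in LKO climbs from under 1 FPKM before CT18 to between 7.42 and 27.1 FPKM at CT42-46, while Flox stays at or under 1.52 FPKM.

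In complex V 4 of the 5 genes of the F1 head, among them both that form the catalytic ring, were lower in LKO, and of the 10 other genes 4 were higher, 2 lower and 4 did not pass. Atp5b, the catalytic beta subunit, had a Flox median of 294 FPKM (98.8 to 395) and an LKO median of 214 (57.8 to 345). At CT0-22 its mean went from 301 ± 50.5 in Flox to 160 ± 75.5 in LKO, a log2 difference of -1.04 (adjusted p = 1.07e-08) against -0.55 over all times (SE 0.116, adjusted p = 4.59e-05). In the later windows the differences were -0.12 and 0.14 and did not pass. Atp5a1, the alpha subunit, followed, from 209 ± 23.9 to 121 ± 49.4 FPKM at CT0-22 (-0.90) and -0.44 over all times.

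Within the F1 head Atp5c1 and Atp5d, the gamma and delta subunits, were lower by 0.14 and 0.13 (log2 differences -0.14 and -0.13), and Atp5e, the epsilon subunit, was higher, from 239 to 311 FPKM (0.37). Of the peripheral stalk, Atp5f1 was lower (-0.20), named after its value was seen, and Atp5h went from 192 to 252 FPKM (0.39) and Atp5j2 of the membrane part from 248.9 to 300.1 (0.29). Among the 3 genes of subunit c, Atp5g3 was lower (363 and 312 FPKM, -0.26), Atp5g1 higher (0.18), and Atp5g2 did not pass (0.02). Genes of complex V, and of its F1 head, thus passed in both directions in the deposited values. With the length trend described below removed, Atp5e lost its call (0.01, adjusted p = 0.901). Atp5g1 (0.15, adjusted p = 0.206) and Atp5j2 (0.13, adjusted p = 0.0549) lost theirs too. Atp5h (0.11, adjusted p = 0.0482) and the 4 lower genes of the F1 head kept their calls.

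Atp5s, a factor of complex V known from other work as a coupling factor, had a similar difference in all 3 windows of the deposited values. Its Flox values ran from 1.17 to 3.53 FPKM with a median of 1.98, and its LKO values from 1.69 to 5.62 with a median of 2.66, overlapping but higher in LKO at 21 of 24 times. The log2 difference was 0.33 (SE 0.048, adjusted p = 2.66e-08), and 0.31, 0.35 and 0.37 in the 3 windows. With the length trend described below removed, the differences by window were 0.30, 0.25 and 0.12. The last of these did not pass (adjusted p = 0.422). Atp5s and Cox6b2 kept their call for a genotype difference under each of the 18 settings that could be run for them (a mean of at least 5 FPKM leaves both out), and no other gene kept its call under all 19 settings. For Cox6b2 this adds little, since it is in the set only through its LKO values.

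Shorter transcripts tended to have higher differences at CT0-22. The 82 genes have short transcripts, with a median of 849.5 nt (371 to 4715) against 2666 nt for the 9837 tested rows with a length. Across genes, Spearman's rho between length and the difference at CT0-22 was -0.43 over the 82 genes and -0.38 over all tested rows, at CT42-46 0.27 and 0.28, and at CT24-40 -0.17 and 0.01; genes are not independent replicates and share their libraries. Of the 23 genes under 600 nt, 19 were higher in LKO at CT0-22 and 0 lower (median 0.45), and of all 220 tested rows of that length 162 were higher and 11 lower (median 0.53). The classes between did not follow in order: of the 21 genes from 600 to under 900 nt 13 were higher and 3 lower (median 0.21, all rows of that length 0.30), and of the 15 from 900 to under 1300 nt 10 were higher and 2 lower (median 0.47, all rows 0.15). Of the 16 genes from 1300 to under 2000 nt, 5 were higher and 7 lower (median -0.07, all rows of that length -0.00), and of the 4 from 2000 to under 3000 nt 1 was higher and 3 lower (median -0.43, all rows -0.09). Of the 3 genes of 3000 nt or more 1 was higher and 1 lower (median 0.01, all rows -0.21). Ndufv1 (1661 nt), Atp5b (1916 nt) and Atp5a1 (2471 nt) are among the longer ones, while Cox5a (645 nt) was lower with a short transcript.

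The same held within libraries. The slope of log2 values on log2 transcript length, fitted in each library over tested rows outside the set, was 0.113 ± 0.103 in Flox at CT0-22, -0.008 ± 0.116 at CT24-40 and -0.165 ± 0.110 at CT42-46, and in LKO -0.053 ± 0.114, -0.022 ± 0.078 and 0.013 ± 0.037. Within the 48 Flox libraries, Pearson's r between this slope and the mean level of complexes I, III, IV and V was -0.95, -0.94, -0.96 and -0.92 (Spearman's rho -0.95, -0.93, -0.95 and -0.91). Within LKO r was -0.80, -0.74, -0.59 and -0.49 (rho -0.76, -0.71, -0.49 and -0.48). The libraries share normalization, and with the 2 outermost slopes left out r was -0.96, -0.94, -0.96 and -0.91 in Flox and -0.74, -0.68, -0.47 and -0.41 in LKO. Within CT0-22 alone r for complex I was -0.98 in Flox and -0.89 in LKO, and within CT24-46 -0.92 and -0.70.

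**Figure D4:**
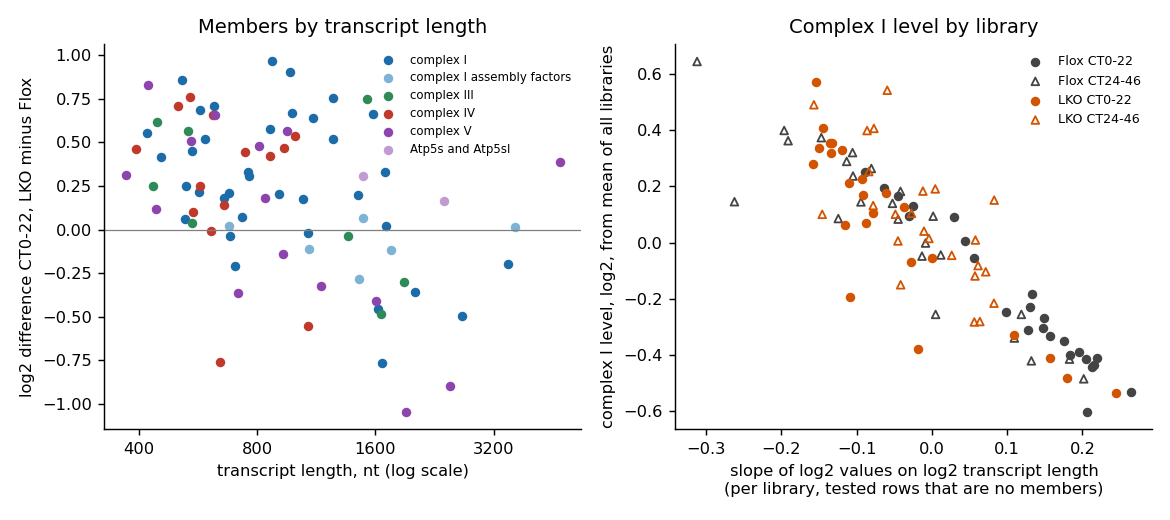
Left, log2 difference between LKO and Flox at CT0-22 (vertical axis) of each gene except Cox6b2 against transcript length in nt on a log axis, coloured by complex. Right, mean log2 level of complex I in each library (vertical axis, from the mean of all libraries) against the slope of all other tested rows on log2 transcript length; the level falls as the slope rises, with r = -0.95 in Flox and -0.80 in LKO.

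When the length trend of each library was removed, an alternative added after the data were seen, 13 genes were higher in LKO and 42 lower over all times, where 34.7% of all rows with a length were higher and 31.4% lower. Of the 35 higher calls 13 remained and 3 turned into lower calls; all 14 lower calls remained, and 25 genes that had not passed became lower. The medians of complexes I, III, IV and V were then -0.09, -0.18, -0.02 and -0.25, with 0.01 for all rows, and at CT0-22 30 genes were higher and 35 lower, beside 3471 and 3384 of the 9837 rows. The signs of the complex medians thus depended on this step, while the lower values of Ndufv1, Cox5a, Atp5b and Atp5a1 did not. Whether the slope stems from the state of the RNA, the library or the liver was not tested. Ribosomal RNA precursor (Rn45s) also differed between these libraries, with 1407 ± 475 FPKM in Flox and 4500 ± 5091 in LKO at CT0-22 and 7049 ± 6075 in Flox at CT42-46. Its part in the result was not tested beyond the fit that holds it as a covariate. There 28 genes were higher and 10 lower, and the shares of all rows in that fit are not given here.

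The counts of calls also fell when libraries of 1 letter were left out. Without the 48 lettered B 10 genes were higher and 1 lower, and without the 44 lettered A 24 and 12. How far the smaller number of libraries accounts for this was not tested. The complex medians without B were 0.14, 0.07, 0.19 and 0.10. When the 6 LKO libraries with macrophage transcripts were left out, 43 genes were higher and 16 lower. The shares of all rows under these settings are not given here, so these counts are not compared with all rows.

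No gene had a 12 h rhythm in Flox that passed over all tested rows, where 1.78% of all rows did. The smallest adjusted p was 0.0776, for Uqcrb, and 39 of the 82 genes had an unadjusted p under 0.05, as did 16.7% of all rows. In LKO 1 gene passed (9.42% of all rows), the complex I assembly factor Ndufaf4, with an amplitude of 0.153 (SE 0.044) on the log2 scale, a peak at 11.7 h and an adjusted p of 0.0426, and 5 genes, and 25.2% of all rows, had an unadjusted p under 0.05. The difference of the 12 h terms between genotypes passed in 0 genes and in 0% of all rows, with an unadjusted p under 0.05 in 40 of the 82 and in 25.8% of all rows. The Ndufaf4 call was lost in 8 of the other settings, among them without the libraries lettered A or B.

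The fitted 12 h terms clustered in phase within each genotype. In Flox 55 of the 82 peaks lay between 10 and 12 h (67.1%, and 19.5% of all rows), with a circular mean of 10.1 h. In LKO 53 of 82 lay between 2 and 4 h (64.6%, and 18.9% of all rows), with a circular mean of 3.31 h. The circular means of complexes I, III, IV and V were 10.3, 10.1, 9.68 and 9.96 h in Flox and 3.08, 2.94, 3.5 and 3.96 h in LKO, and the differences between complexes were not tested. The median amplitude was 0.152 in Flox and 0.109 in LKO, and the amplitude was lower in LKO in 69 of the 82 genes and in 4524 of the 9901 rows. These are fitted terms of genes that share their libraries, most of which did not pass a test.

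**Figure D5:**
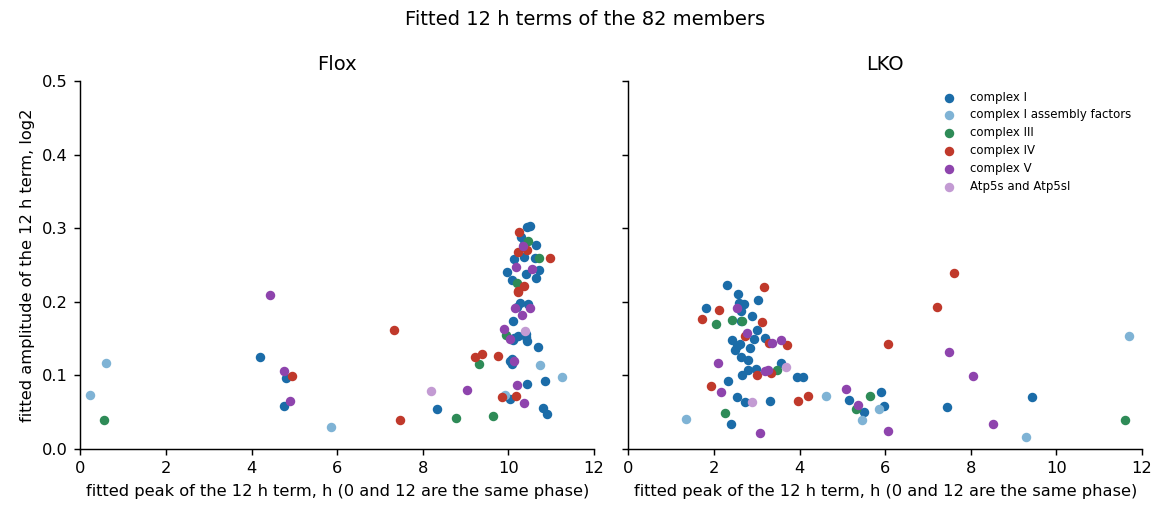
Fitted amplitude (vertical axis, log2) against fitted peak in h of the 12 h term of each of the 82 genes in Flox (left) and LKO (right), coloured by complex. Most points gather between 10 and 12 h in Flox (55 of 82) and between 2 and 4 h in LKO (53 of 82).

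In Flox the genes with the smallest p were Uqcrb (amplitude 0.259, SE 0.071, peak 10.7 h), Ndufv3 (0.302, 10.4 h, adjusted p = 0.0862), Ndufa8 (0.260, 10.6 h, 0.0944), Ndufs3 (0.174, 10.1 h, 0.0945) and Ndufa6 (0.232, 10.6 h, 0.116). Ndufv3 and Ndufa6 are accessory subunits of the peripheral arm, Ndufa8 of the membrane arm, and Ndufs3 is a core subunit of the ubiquinone module. In LKO, after Ndufaf4, they were Ndufc1 (0.198, 2.58 h, adjusted p = 0.155), Ndufa1 (0.188, 2.64 h, 0.163), Cox5b (0.172, 3.12 h, 0.166) and Ndufa2 (0.210, 2.57 h, 0.174). For the difference between genotypes the smallest p-values belonged to Cox5b, a zinc-binding subunit of complex IV (p = 0.000632), and Ndufa1 (p = 0.000671), both with an adjusted p of 0.130. In Flox 8 genes had a fitted peak at 4 to 6 h (9.76%, and 23.8% of all rows), and none of these terms passed. Among them were Atp5b at 4.44, Atp5a1 at 4.77 and Ndufv1 at 4.81 h, which were also among the genes lower in LKO.

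After removal of the length trend the circular mean peak was 9.16 h in Flox and 2.72 h in LKO, with the concentration of the peaks (0 for none, 1 for a single phase) at 0.50 in both where it had been 0.74 and 0.64. In that fit 0 genes passed for 12 h in Flox, 5 in LKO and 0 for the difference. The shares of all rows that passed in it are not given here, so the 5 are not read as more rhythmic genes than before.

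For the 24 h term 14 genes passed in Flox and 42 in LKO (27.3% and 49.5% of all rows), and 0 for the difference between genotypes, where 19.9% of all rows passed; the smallest adjusted p of the difference was 0.0524, for Atp5s, and 4 genes had an unadjusted p under 0.05, against 37.5% of all rows. The counts in Flox and LKO were 7 and 18 in complex I, 2 and 4 in complex III, 0 and 5 in complex IV and 3 and 9 in complex V. The circular mean peak was 17.3 h in Flox and 14.1 h in LKO. With median-ratio scaling the counts were 31 and 9, so that the larger number in LKO depended on the scaling. Without the LKO library with muscle transcripts they were 14 and 47. The shares of all rows under these 2 settings are not given here, so these counts are not compared with all rows.

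Ndufaf4 had the firmest 24 h term in both genotypes, with amplitudes of 0.319 in Flox (SE 0.044, peak 15.5 h, adjusted p = 9.26e-08) and 0.3097 in LKO (14.1 h, adjusted p = 1.92e-07). Its transcript is 3632 nt long, among the longest of the set. Atp5s peaked at 4.86 h in Flox (amplitude 0.209, adjusted p = 0.00119) and at 9.40 h in LKO (0.135, 0.0378). Atp5sl peaked near it in LKO. There the circular mean of these 2 genes was 9.59 h with a concentration of 0.9987, and both passed. Uqcr10, a small subunit of complex III, had an amplitude of 0.254 in Flox (18.3 h, adjusted p = 0.0105), and the membrane-arm subunits Ndufb6 and Ndufc2 of 0.335 (14.5 h, adjusted p = 1.41e-05) and 0.304 (14.1 h, adjusted p = 8.30e-05) in LKO. The differences between genotypes of Ndufa1 and Ndufb6 had adjusted p-values of 0.0684 and 0.0814.

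Genes followed each other from library to library, within and across complexes. The median Pearson correlation between pairs of genes over 48 libraries was 0.81 in complex I, 0.66 in III, 0.64 in IV and 0.76 in V in Flox, and 0.66, 0.47, 0.43 and 0.52 in LKO. Across complexes it was 0.75 for I with III, 0.75 for I with IV, 0.80 for I with V, 0.65 for III with IV, 0.73 for III with V and 0.69 for IV with V in Flox, and 0.49 to 0.59 in LKO. The values of a library share its normalization and its length slope.

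Other genes of the pathway were described from lists, whose counts are to be read against the 39.4% of all rows that were higher in LKO and the 19.1% that were lower. Of the 4 complex II subunits, which link the citric acid cycle to the chain, 3 were lower in LKO and 0 higher: Sdhd (-0.62), the flavoprotein Sdha (-0.53) and Sdhc (-0.12). Cyc1, the cytochrome of complex III, was lower (-0.29) and Cycs, cytochrome c, higher (0.19). Of 13 citric acid cycle enzymes 7 were lower and 3 higher, led by Sucla2 (-0.58), Suclg1 (-0.48) and Idh3g (0.31). Of 6 tested proteins that associate with the complexes 4 were higher and 0 lower, among them Atpif1, the inhibitor of complex V (3.76 ± 1.02 FPKM in Flox, 6.83 ± 3.90 in LKO, 0.60), Romo1 (0.47) and 2010107E04Rik (0.20).

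Assembly factors were split. Those of complex IV were higher in 10 of 22 and lower in 6, with the copper chaperone Cox17 (0.59), Cox20 (0.58) and Coa4 (0.42) leading. In complex III 2 of 5 were higher, Uqcc2 (0.60) and Uqcc3 (0.38), and 1 lower, Uqcc1 (-0.17). Of the 9 complex I factors whose symbols do not begin with Nduf, 4 were lower and 0 higher, with Timmdc1 (-0.24), Nubpl (-0.50) and Tmem126b (-0.19) leading, and of 4 for complex V 1 was lower, Tmem70 (-0.12). Of 15 tested regulators of mitochondrial biogenesis 5 were higher and 4 lower. Gabpb1, a partner of the ETS factor GABPA, was higher (0.37), as was Nfe2l2 (0.57), and Ppara, the receptor that drives fatty acid oxidation, was lower (-0.64). In these lists a 12 h term passed in LKO, as in 9.42% of all rows, for Ecsit (adjusted p = 0.0313), Sco2 (0.0170) and the regulator Nrf1 (0.0158), and for none in Flox.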

How the data were processed

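The FPKM values, as deposited by the authors in 1 gene table with a column for each of 96 liver libraries, were made with FastQC, Trimmomatic, HISAT2 and Cufflinks on mm10, per the submitters' processing notes, which give no versions or order here. The header gives no unit, and FPKM is read from the range of the values and the tools named; per the labels, poly-A RNA went into a stranded kit. The sources used here do not say how reads shared with processed pseudogenes or overlapping models were counted. All columns were used. Columns were matched to samples by name.

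Values were analysed as log2(FPKM + 1) for 9901 rows with a mean of at least 1 FPKM, in limma 3.58.1 under R 4.3.3 (intensity trend, robust, two-sided moderated tests and F tests, Benjamini-Hochberg adjusted over all rows, threshold 0.05). A fold change on this scale understates that of low genes. The genotype model held the 24 times as a factor, with further terms for day or window. The rhythm model held 24 h and 12 h cosine and sine terms for each genotype. Transcript lengths are those of GENCODE M21 principal transcripts on mm10, found for all 82 genes. Relative depth came from steps between low values, of which 2529 of 4560 pairs of libraries gave a clear one. P-values measure the spread between these libraries, which may in part be technical. Figures were drawn with matplotlib 3.10.9.

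The genes, lists, roles and tests were chosen with earlier results of these data known. Named are, in each complex and among assembly factors, up to 3 higher and 3 lower genes with the largest differences past the threshold, the highest and lowest mean, isoform pairs, the genes nearest the limit of 1 FPKM, the 5 smallest p for 12 h and 3 for 24 h in each genotype, 2 and 3 for their differences, the 4 smallest for the difference between days, and up to 3 from each list. Other genes were named after their values were seen. Alternatives were another pseudocount, filters, scalings, a replicate block, covariates, an added 8 h term, and libraries or times left out. Totals ran from 313380 to 498760 FPKM, and since the table gives no counts, no intervals or floors are given. A result on 1 gene that the rule names is not reported here.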

Additional observations from a re-analysis of the deposited data

Results flagged for a closer look

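The difference between genotypes changed between the days in 58 of the 82 genes (a test of that change itself, limma, adjusted over all rows). The smallest p-values belonged to Cox6b2, where the second day exceeded the first by 2.35 on the log2 scale, and to Uqcrq (-1.28), Cox7b (-0.91) and Ndufaf7 (0.48). Cox6b2 is in the set only through its LKO values, which were higher on the second day. Of all tested rows 59.5% changed upward and 9.65% downward, and the slope on transcript length changed between the same days, and its part and that of the macrophage transcripts at CT42-46 were not tested.

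In the groups of 6 libraries of CT42-46, 1 library lay apart from the other 5 in 2 of 58 groups examined, where chance alone flags about 1 in 20. The Flox library of CT44 with letter B had a summed FPKM of complex V of 4940, and 1 LKO library had 114 FPKM of Cox5a.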

How the results depend on the processing

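Over all times 35 genes were higher in LKO and 14 lower, 58 differed between days, and 0, 1 and 0 passed for the 12 h term in Flox, LKO and their difference and 14, 42 and 0 for the 24 h term. The cause of the changes that follow was not tested, and for most settings the shares of all rows are not given. Leaving out all libraries of 1 letter gave 10 to 35 higher, 1 to 14 lower, 0 to 1 for 12 h in LKO, 1 to 12 and 5 to 41 for 24 h in Flox and LKO, and 25 to 56 for the days, with each lowest value reached without letter B. Median-ratio scaling gave 18 higher and 18 lower, and 31, 9 and 1 for 24 h. Quantile normalization gave 4 for 12 h in LKO and 23 and 1 for 24 h in LKO and the difference. With the length trend removed 13 were higher and 42 lower, 5 passed for 12 h in LKO, 16 and 2 for 24 h in LKO and the difference, and the complex V median moved to -0.25. The 12 h count in LKO was 0 with a pseudocount of 0.1, a mean of at least 5 FPKM, without the LKO libraries or all libraries of CT42-46, with a linear trend and on the first day alone. For 24 h, Flox gave 3 without CT42-46, 6 without the Flox library CT42 B and 7 with a linear trend, and LKO 24 on the first day alone; the difference gave 1 with a pseudocount of 0.1, without a filter and with an 8 h term, and 3 with Rn45s as covariate. The linear trend gave 1 for 12 h in Flox. The second day alone gave 5 higher and 6 lower, and CT24-40 alone 8 and 2.

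Among the genes named by rule, signs turned for Ndufaf7 on the first day (-0.11), for Uqcr11 (-0.042) and Uqcrb (-0.0051) with the length trend removed, for Uqcrc1 on the second day (0.045) and at CT24-40 (0.065), for Uqcrc2 at CT24-40 (0.0056), and for Atp5e (-0.078) and Atp5a1 (0.020) on the second day. In all, 20 of the 49 called genes turned sign under at least 1 setting, among them Ndufs1 (up to 0.086), Ndufs8 (down to -0.027), Atp5c1 (up to 0.066), Atp5f1 (up to 0.068) and Atp5g1 (down to -0.033). Same-lettered libraries did not deviate together (the correlation of their deviations exceeded 0.1 at 7 of the 20 times with letters A and B in both genotypes); a replicate block on the letter gave 33 higher and 14 lower, 1 for 12 h in LKO, 13 and 42 for 24 h and 57 for the days. Depth is not given by the table, and genes near 1 FPKM carry the largest counting error.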
